A study of Mus musculus with 6 samples.

Results

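Transcription factors of nephron and proximal tubule identity were examined in HK-2 cells with and without USAG-1 overexpression. The set had 8 listed members, HNF4A, HNF4G, PAX2, PAX8, LHX1, EMX2, MAF and CUX1, found in the table by gene symbol. The set and the related lists were chosen with earlier results of these data known, so the shares called are descriptions. Of these, 7 had a row among the 39234 genes of the deposited table, and EMX2 was not analysed here. HK-2 is an immortalized epithelial line from human proximal tubule. RNA was sequenced from 3 control libraries and 3 libraries of cells overexpressing USAG-1, and the labels give a wild-type genotype for all 6. According to the study's methods, overexpression in cells was by transient plasmid transfection, so the cells of a culture need not carry the plasmid equally, and the identity of the line had not been checked by STR profiling. Mouse is entered as the organism in the labels, but both the line and the gene identifiers are human. They do not state whether the 3 libraries of a group came from separate cultures, so p-values measure the spread between these libraries.

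The members act at successive steps of nephron formation. PAX2 and PAX8 are paired-box factors that establish the renal epithelial lineage, and LHX1, a LIM homeodomain factor, acts with them in the nephric duct and in the patterning of the early nephron. EMX2 is a homeodomain factor of the ureteric bud. HNF4A is a nuclear receptor that drives the maturation of proximal tubule cells, and HNF4G is its close paralog. MAF is a leucine zipper factor that is found in proximal tubule and also in several kinds of T cells. CUX1 is a homeodomain protein of proliferating nephrogenic cells that represses inhibitors of the cell cycle.

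Library totals ranged from 41236194 to 48699471 counts. SOSTDC1, which encodes USAG-1, was listed at 79, 80 and 60 in control replicates 1 to 3 and at 5072, 3907 and 4438 in the overexpression replicates, so the labels match the gene that was overexpressed. Counts from the plasmid and from the chromosomal gene cannot be told apart. Genes that passed a filter on low counts were tested with edgeR's quasi-likelihood test. SE stands for the standard error of a log2 fold change. A gene was called changed at an adjusted p under 0.05 after Benjamini-Hochberg adjustment over all 18188 genes tested. By this rule 15.9% of the genes tested were called, 8.95% as higher and 6.91% as lower in USAG-1-overexpressing cells. Levels are given in CPM, counts scaled to a common library size by edgeR's TMM factors. Control replicate 3 stood apart from its group, with a chi-square per degree of freedom of 42.3 and 42.7 against the other control libraries, which gave 6.52 against each other. Mitochondrially encoded genes took 4.80% to 5.59% of the counts in control libraries and 1.504% to 1.55% with overexpression. Without these genes the counts of calls among the members and in each of the 5 related lists were the same. Markers of T and NK cells were detected in control and overexpression libraries, against the label of an epithelial line. They were lower with overexpression, as described with MAF.

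Of the 7 members with a row, 5 passed the filter and 4 of these were called, where 15.9% of all genes tested were called. PAX8 and CUX1 were higher in USAG-1-overexpressing cells, LHX1 and MAF were lower, and HNF4G did not pass the test. PAX2 and HNF4A had too few counts to be tested. The count of 4 stayed at 4 without control replicate 1 or 3. It was 2, both lower, without control replicate 2 or without any of the 3 overexpression libraries, because PAX8 and CUX1 then missed the threshold. In bulk RNA, fewer cells that express a gene and less RNA per cell cannot be told apart.

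**Figure D1:**
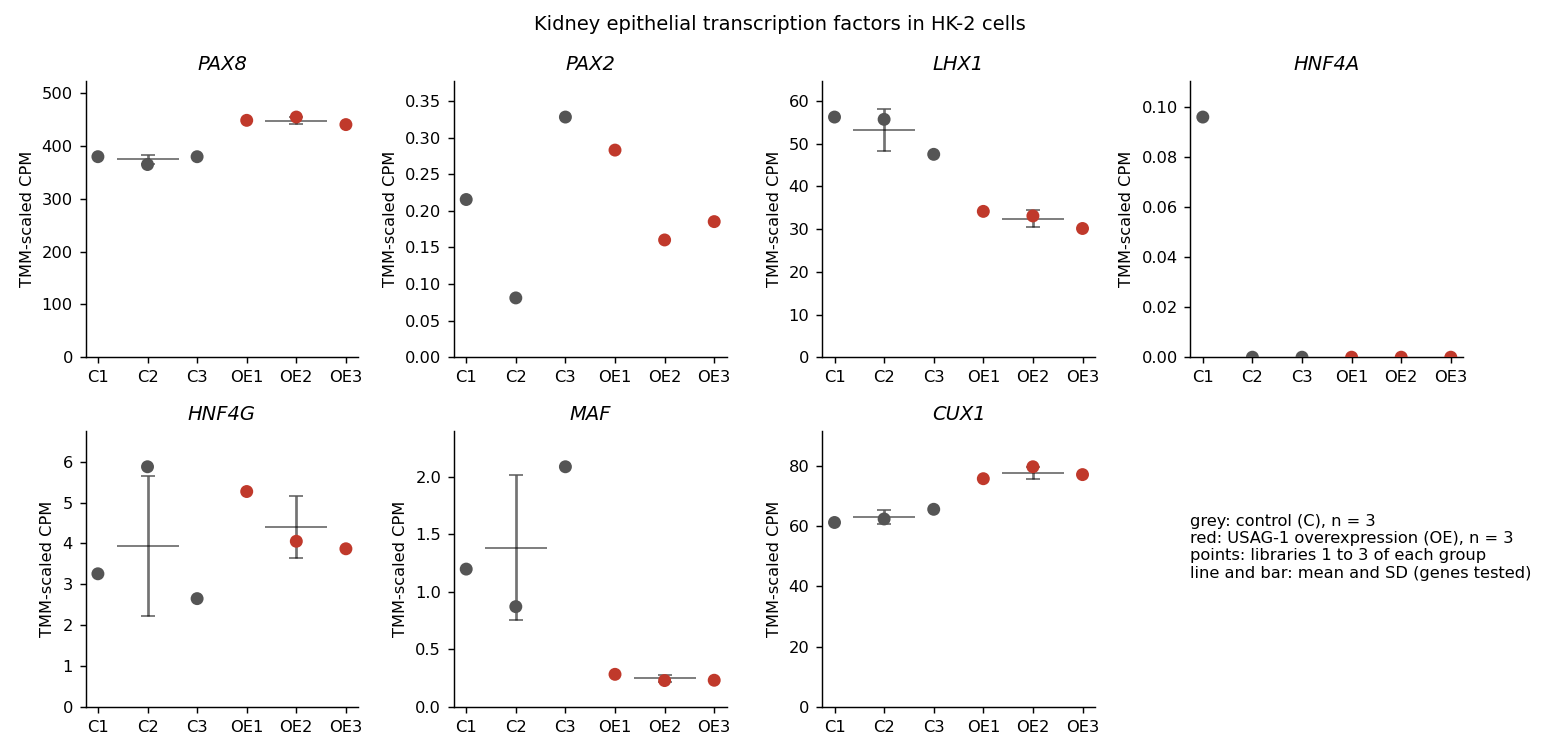
TMM-scaled CPM (y axis, linear from 0) of the 7 members with a row in each of the 6 libraries (x axis; C, control; OE, USAG-1 overexpression); points are libraries, and for the genes tested the line and bar are the mean and SD of 3 libraries. The groups do not overlap for PAX8, LHX1, MAF and CUX1, and they overlap for HNF4G, PAX2 and HNF4A. Of all genes tested, 37.6% had groups without overlap.

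PAX8 was abundant in every library and rose modestly. PAX8 (ENSG00000125618; chromosome 2, 113215997 to 113278921, minus strand, hg38) had 379.9, 365 and 379.9 CPM in control replicates 1 to 3 and 449, 455 and 441 CPM in the overexpression replicates. All 3 overexpression libraries lay above all 3 control libraries, and the spread within each group was small, at 375 ± 8.57 CPM (SD, n = 3) against 448 ± 7.16 CPM (SD, n = 3). The log2 fold change was 0.26 (SE 0.05, 95% interval 0.14 to 0.37, edgeR adjusted p = 0.0114), a 1.20-fold level. A log2 fold change at least this large in either direction was found for 45.5% of all genes tested. Groups without overlap were found for 37.6% of the genes tested, with overexpression higher for 19.4%. Without control replicate 2 or any overexpression library the log2 fold change of PAX8 was 0.24 to 0.27, and the adjusted p was between 0.0507 and 0.0643.

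PAX2, the other paired-box member, was near the limit of detection. Control replicates 1 to 3 held 9, 4 and 14 counts and the overexpression replicates 13, 7 and 8, between 0.0811 and 0.328 CPM. The groups overlapped, and no fold was computed. A level of 3 counts corresponded to between 0.0608 and 0.0719 CPM in these libraries, so the listed values of PAX2 stood above this limit in every library, in control replicate 2 by 1 count.

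LHX1 fell in USAG-1-overexpressing cells. LHX1 (ENSG00000273706; chromosome 17, 36936785 to 36943685, plus strand) had 56.2, 55.7 and 47.5 CPM in the control libraries and 34.2, 33.1 and 30.1 CPM with overexpression. Every overexpression library was below every control library, and control replicate 3 was the lowest of the controls. The group levels were 53.2 ± 4.89 and 32.5 ± 2.08 CPM (SD, n = 3 each), with an estimated log2 fold change of -0.71 (SE 0.09, 95% interval -0.91 to -0.51, edgeR adjusted p = 0.0019), or 1.64-fold lower. Of all genes tested, 12.4% had a log2 fold change at least this large in either direction. LHX1 was called under all 14 alternative settings, with a log2 fold change between -0.78 and -0.66.

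HNF4A was almost undetected. HNF4A (ENSG00000101076; chromosome 20, 44355699 to 44432845) had 4 counts in control replicate 1 and no count in the other 5 libraries, which allows a level of up to 0.0653 to 0.0695 CPM in the overexpression libraries. The limit covers counting error only. HNF4A could not be compared between the groups at this depth.

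HNF4G, which shares its DNA-binding mode with HNF4A, was detected in every library. It had 3.26, 5.88 and 2.65 CPM in the control libraries and 5.27, 4.05 and 3.87 CPM with overexpression. Control replicate 2 had the highest level and control replicate 3 the lowest, so the 3 overexpression libraries lay within the range of the controls. Its log2 fold change was 0.16 (SE 0.30, 95% interval -0.52 to 0.84, edgeR adjusted p = 0.765). The interval leaves room for changes in either direction, and the value was -0.05 without control replicate 3. HNF4G (ENSG00000164749) is on chromosome 8, 75407914 to 75566834, plus strand.

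MAF showed the largest fold change of the 5 members tested, at a low level. MAF (ENSG00000178573; chromosome 16, 79585843 to 79600737, minus strand) was counted 50, 43 and 89 times in control replicates 1 to 3 and 13, 10 and 10 times in the overexpression replicates. In CPM these were 1.20, 0.871 and 2.09 in control cells and 0.283, 0.229 and 0.232 with overexpression. The groups did not overlap, and control replicate 3 was the highest. The log2 fold change was -2.46 (SE 0.42, 95% interval -3.43 to -1.50, edgeR adjusted p = 0.00717), or 5.52-fold lower. It was called under all 14 alternatives, between -2.71 and -2.04.

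Markers of T cells and NK cells moved with MAF. All 14 genes of a marker list for these cells, among them the T-cell receptor and CD3 genes, were called lower. Their summed level was 101, 94.2 and 113 CPM in control replicates 1 to 3 and 14.2, 10.5 and 9.87 CPM in the overexpression replicates, which is 8.90-fold lower on average. In the control libraries replicate 3 was highest and replicate 2 lowest in both MAF and this sum, whereas with overexpression replicate 2 was lowest in MAF and replicate 3 in the sum. MAF counts amounted to 1.19%, 0.925% and 1.84% of the summed marker counts in the control libraries and to 1.99%, 2.17% and 2.35% with overexpression. None of the 14 markers was at 0 in a control library. Of the 5 myeloid markers, 2 were called lower by edgeR, LYZ and ITGAM, while 2 were called by DESeq2 and 1 by limma-voom. CSF1R was lower too, at an unadjusted p under 0.05 (edgeR adjusted p = 0.0994). The summed level of the 5 was 36.1 to 52.4 CPM in control libraries and 22.0 to 27.9 CPM with overexpression, and 64.9% of it was LYZ. Of the 4 B cell markers, 0 passed the edgeR test (0 at an unadjusted p under 0.05, 0 by DESeq2 and 0 by limma-voom), and their summed level was 2.01 to 3.66 against 1.22 to 3.22 CPM. Transcripts of this kind are not those of an epithelial line. They were present in all 3 control libraries and, at a lower level, in all 3 overexpression libraries. Counts summed over the 14 T and NK markers were 653, 460 and 426 in overexpression replicates 1 to 3. No comparison could thus be made without the libraries that hold them. Whether the libraries hold RNA of other cells or of another sample was not tested. Nor was the part of such RNA in the values of MAF, GATA3, ITGB7, CCND2 and PSD4.

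**Figure D2:**
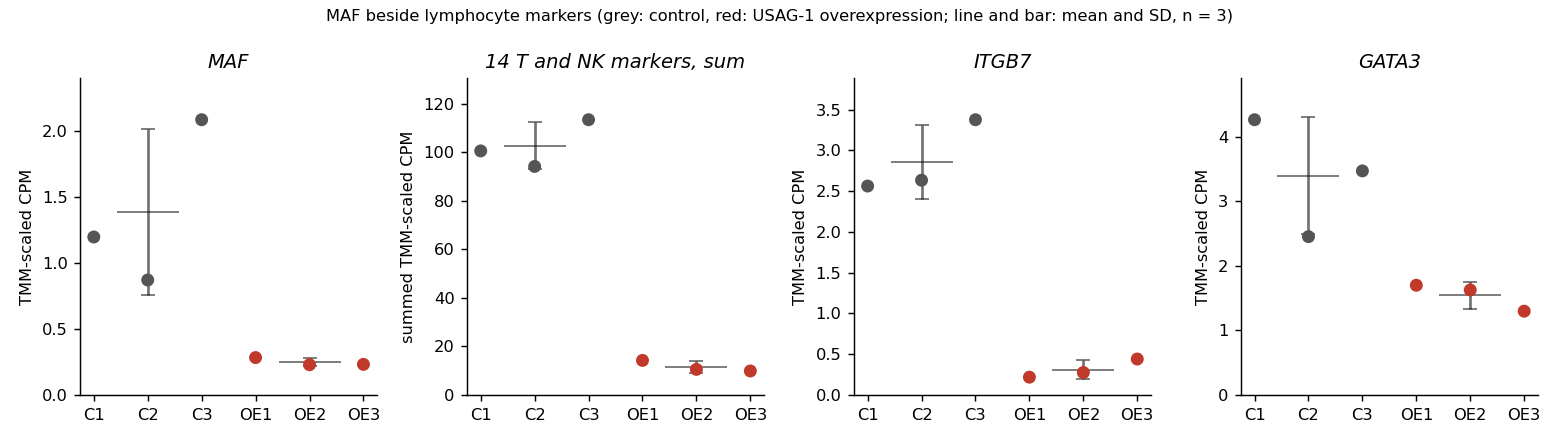
TMM-scaled CPM (y axes, linear from 0) of MAF, of 14 summed T and NK cell markers, of ITGB7 and of GATA3 in the 6 libraries (x axis; C, control; OE, USAG-1 overexpression); points are libraries, line and bar the mean and SD of 3. In all 4 panels the control libraries lie above the overexpression libraries.

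CUX1 rose by about as much as PAX8. CUX1 (ENSG00000257923; chromosome 7, 101815904 to 102283958, plus strand) had 61.1, 62.3 and 65.5 CPM in the control libraries and 75.6, 79.6 and 77.0 CPM with overexpression. The groups did not overlap, with 63.0 ± 2.26 against 77.4 ± 2.01 CPM (SD, n = 3 each). The log2 fold change was 0.30 (SE 0.06, 95% interval 0.16 to 0.43, edgeR adjusted p = 0.0123), a 1.23-fold level. A log2 fold change at least this large in either direction was found for 39.7% of all genes tested. Without control replicate 2 or any overexpression library the log2 fold change of CUX1 was 0.28 to 0.32 and the adjusted p was between 0.0511 and 0.0695. The table gives 1 value per gene, so the several transcripts of CUX1, which include a form without the homeodomain, cannot be told apart.

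**Figure D3:**
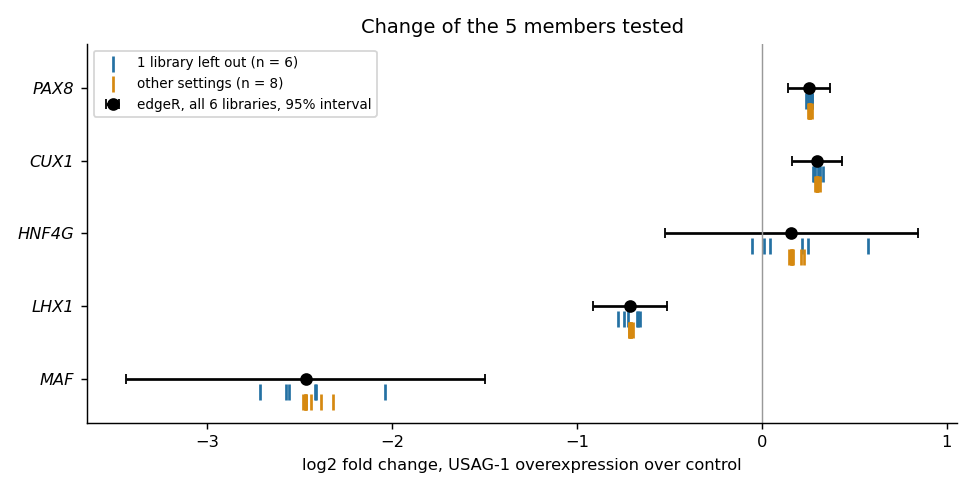
Log2 fold change of USAG-1 overexpression over control (x axis) for the 5 members tested; the point and bar are edgeR's estimate from all 6 libraries with its 95% interval, blue ticks the 6 fits with 1 library left out and orange ticks 8 other settings. PAX8 and CUX1 stay above 0 and LHX1 and MAF below 0 in every setting, whereas the ticks of HNF4G lie on both sides of 0.

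The 3 most abundant members were also compared by the ratio of their counts within each library. The change of such a ratio between groups depends neither on gene length nor on the scaling of the libraries. The ratio of PAX8 to LHX1 was 6.76, 6.55 and 8.00 in the control libraries and 13.1, 13.8 and 14.6 with overexpression. This is a 1.95-fold change (p = 0.1, two-sided exact permutation test over libraries, the smallest p that 3 against 3 allow). The ratio of CUX1 to LHX1 changed from 1.19 ± 0.160 to 2.39 ± 0.170 (SD, n = 3 each), 2.01-fold (p = 0.1, the same exact permutation test). The ratio of PAX8 to CUX1 was 5.96 ± 0.224 in control cells and 5.79 ± 0.123 with overexpression (SD, n = 3 each), and the groups overlapped (p = 0.3, exact permutation test). PAX8 and CUX1 were already higher and LHX1 lower in CPM, each without overlap. Both ratios over LHX1 thus had to separate fully, so their p of 0.1 was fixed in advance and adds no support. These 3 comparisons are not independent, and adjustment over them leaves no p under 0.1.

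**Figure D4:**
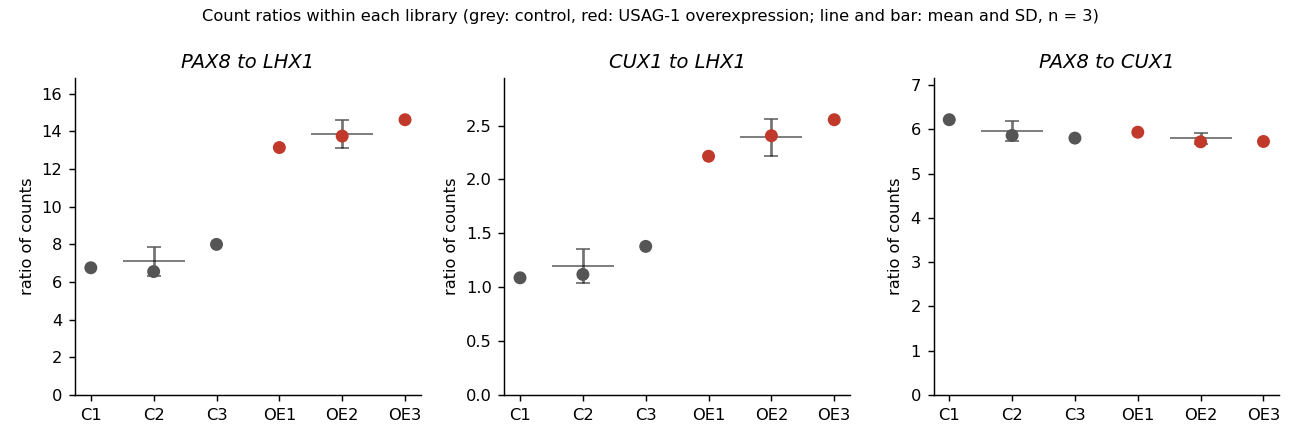
Ratio of the counts of PAX8 to LHX1, CUX1 to LHX1 and PAX8 to CUX1 (y axes, linear from 0) in each of the 6 libraries (x axis; C, control; OE, USAG-1 overexpression); points are libraries, line and bar the mean and SD of 3. Both ratios over LHX1 are higher in all 3 overexpression libraries, and the ratio of PAX8 to CUX1 overlaps between the groups.

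Genes next to the members were read from the table within 20000 bases, and those named were chosen after their values were seen. LHX1-DT, a divergent transcript that starts 115 bases from LHX1 on the other strand, fell together with LHX1. It had 9.01, 7.42 and 7.36 CPM in the control libraries and 4.46, 3.71 and 4.08 CPM with overexpression, a log2 fold change of -0.96 (SE 0.15, edgeR adjusted p = 0.0052). At the PAX8 locus, the antisense gene PAX8-AS1 shares 58179 bases with PAX8 and had a log2 fold change of -0.04 (95% interval -0.35 to 0.28, edgeR adjusted p = 0.887). Its groups overlapped. The libraries were strand-specific, but the sources used here do not state whether strand was used in counting, so the division of reads between PAX8 and PAX8-AS1 is uncertain. PSD4, which lies 6606 bases beyond PAX8, fell by 1.23 on the log2 scale (edgeR adjusted p = 0.00992), a call lost without USAG-1 overexpression replicate 2 (adjusted p = 0.0579). The T and NK markers fell in the same libraries, and the part of such cells in PSD4 was not tested. SH2B2, which starts 1133 bases after the end of CUX1 on the same strand, rose from 4.81 ± 0.538 to 11.8 ± 1.44 CPM (SD, n = 3 each), with an estimated log2 fold change of 1.30 (SE 0.15, edgeR adjusted p = 0.00137).

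For each member called, the 2 genes with the most similar profile over the 6 libraries were taken from 13623 other genes with a symbol and a mean of at least 1 CPM. Likeness was the root mean square difference of log2 CPM centred on each gene's mean. For PAX8 these were FOXO3 (0.0137) and SNW1 (0.0152), and for CUX1 they were ARAP1 (0.0124) and ZNF724 (0.0164). For LHX1 they were INHBA (0.0400), which encodes an activin subunit, and ABCA2 (0.0477). For MAF they were CTSW (0.271), the cathepsin of cytotoxic lymphocytes, and ACAP1 (0.276), so even the nearest profiles of MAF were less alike than those of the other members. With groups that differ, this measure mainly reflects the size of the difference between the groups. MAF had 10 to 89 counts in a library, far fewer than the other members called, and the part of counting error in its values was not tested.

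The related genes were described in 5 lists typed from general knowledge. Among 21 transcription factors of the proximal tubule and other tubule segments, 13 were tested and 7 were called, all of them higher. This is 53.8% of those tested, where 15.9% of all genes tested were called, and the median log2 fold change was 0.48 against -0.02 over all genes tested. The count was 3 without USAG-1 overexpression replicate 1 or 2 and 4 without control replicate 1 or 2. RXRA, the common partner of nuclear receptors, rose by 0.50 on the log2 scale (SE 0.06, edgeR adjusted p = 0.00224), from 50.6 ± 2.79 to 71.3 ± 1.45 CPM (SD, n = 3 each). NR1H4, the bile acid receptor FXR, rose from 0.280 ± 0.0793 to 1.53 ± 0.263 CPM (SD, n = 3 each), with an estimated log2 fold change of 2.43 (SE 0.34, edgeR adjusted p = 0.0032). ELF3, an ETS factor of epithelia, rose by 0.46 (SE 0.07, edgeR adjusted p = 0.00347). The other 4 called were PPARA, SIM1, MECOM and KLF5, named after their values were seen. Each of these 4 lost its call when some single libraries were left out, with the highest adjusted p between 0.11 and 0.135.

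Among 28 factors of nephron progenitors and nephron patterning, 22 were tested and 4 were called, 2 higher and 2 lower. The share of 18.2% is close to the 15.9% over all genes tested, and the median log2 fold change was -0.02 in both. TCF21, a stromal and podocyte factor, rose by 1.20 on the log2 scale (SE 0.17, edgeR adjusted p = 0.00312), from 2.72 ± 0.314 to 6.24 ± 0.70 CPM (SD, n = 3 each). SALL1, a zinc finger factor of nephron progenitors, had 169, 163 and 144 CPM in control libraries and 116, 116 and 104 CPM with overexpression. Its log2 fold change was -0.50 (SE 0.08, edgeR adjusted p = 0.00505). HES1, a Notch target, rose by 0.64 (SE 0.13, edgeR adjusted p = 0.0166), a call lost without USAG-1 overexpression replicate 2 (adjusted p = 0.0618), where the list had 2 calls. GATA3, which has roles both in the collecting duct and in T cells and was named after its values were seen, fell by 1.14 (SE 0.25, edgeR adjusted p = 0.0193). It missed the threshold without control replicate 1 or without any overexpression library, and the T and NK markers fell in the same libraries. The part of such cells in GATA3 was not tested.

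Of 22 paralogs of the members, 12 were tested and 1 was called, which is 8.33% against 15.9% of all genes tested. This was MAFF, a small MAF protein without an activation domain, which rose by 0.56 on the log2 scale (SE 0.11, edgeR adjusted p = 0.0117), whereas MAF fell. The call was lost without USAG-1 overexpression replicate 2 or 3, and the list had 3 calls without control replicate 3. MAFK had a log2 fold change of 0.31 (adjusted p = 0.0702) and LHX2 one of 0.28 (adjusted p = 0.157), both from edgeR.

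Cofactors of the members were tested in 18 of 20 cases and 7 were called, all higher, which is 38.9% of those tested. Of all genes tested, 15.9% were called, 8.95% as higher. The median log2 fold change was 0.20. EP300 rose by 0.43 on the log2 scale (SE 0.06, edgeR adjusted p = 0.00236), from 138 ± 5.11 to 186 ± 4.26 CPM (SD, n = 3 each). Its relative CREBBP, also a histone acetyltransferase that acts with many transcription factors, rose by 0.33 (edgeR adjusted p = 0.00635). NCOA3, a nuclear receptor coactivator, rose by 0.48 (SE 0.06, edgeR adjusted p = 0.00264). NCOA2, PPARGC1A, the LIM-domain binding protein LDB1 and CTSL, the cathepsin that cleaves CUX1, were the other calls and were named after their values were seen. PPARGC1A, the coactivator PGC-1alpha, rose from 13.9 ± 2.41 to 21.6 ± 1.66 CPM (SD, n = 3 each) and CTSL from 91.4 ± 7.15 to 115 ± 4.18 CPM. With 1 library left out, the call was lost in 2 fits for PPARGC1A (USAG-1 overexpression replicate 1 or 3), in 3 for NCOA2 (any overexpression library) and in 5 for CTSL (any library but control replicate 3). LDB1, the partner of LHX1, rose by 0.26 (edgeR adjusted p = 0.0225), and it missed the threshold when any library other than control replicate 3 was left out. The list had 3 calls without USAG-1 overexpression replicate 1 or 3 and 4 without replicate 2.

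The list of target genes of the members, drawn also from liver, thyroid and lymphocytes, held 25 genes, of which 11 were tested. The 4 genes called were all lower, and this is 36.4% of those tested, with a median log2 fold change of -0.28. Over all genes tested 15.9% were called, 6.91% as lower. SERPINA1, a target of HNF4A in liver, had 207, 201 and 217 CPM in the control libraries and 129.6, 134 and 131 CPM with overexpression. Its log2 fold change was -0.67 (SE 0.05, edgeR adjusted p = 4.27e-04). CDH16, the kidney-specific cadherin and a target of PAX8, fell from 9.91 ± 0.855 to 6.20 ± 0.385 CPM (SD, n = 3 each), with an estimated log2 fold change of -0.68 (SE 0.13, edgeR adjusted p = 0.00992). Without USAG-1 overexpression replicate 2 its adjusted p was 0.0536, and the list then had 2 calls. ITGB7 and CCND2, which MAF activates in lymphoid cells, fell by 3.19 (adjusted p = 8.53e-04) and 0.88 (adjusted p = 0.0362) on the log2 scale by edgeR. CCND2 was named after its values were seen, and its call was lost in 8 of 14 alternatives. ITGB7 is a lymphocyte integrin, and the T and NK markers fell in the same libraries. The part of such cells in ITGB7 and CCND2 was not tested.

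**Figure D5:**
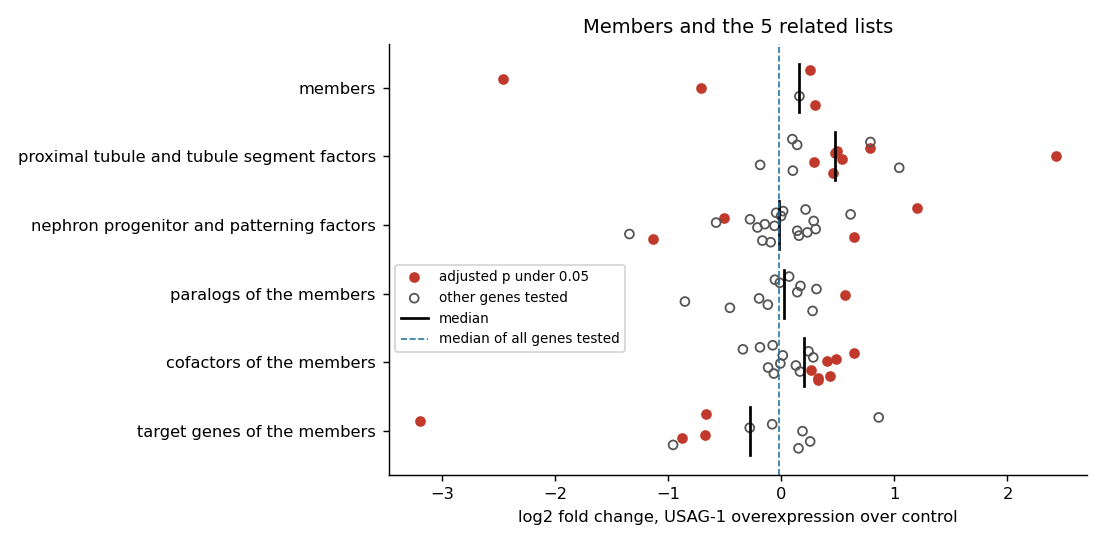
Log2 fold change of USAG-1 overexpression over control (x axis) for each gene tested among the members and the 5 related lists (rows); filled points passed an adjusted p of 0.05, open points did not, black bars are list medians and the dashed line the median of all genes tested. All 7 filled points of the tubule segment factors and all 7 of the cofactors lie right of 0, and all 4 of the target genes lie left of it.

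The labelled cell type was checked against markers. Of 14 proximal tubule markers, 11 had a row and 7 were tested. LRP2, the endocytic receptor megalin, was at 0 in every library, and CUBN and AQP1 had at most 15 counts in a library. The summed level of the list was 168 to 209.5 CPM in control libraries and 217 to 249.97 CPM with overexpression, and 60.0% of it was GGT1. GGT1 itself rose from 105 ± 17.0 to 153 ± 14.2 CPM (SD, n = 3 each), so the sum does not stand for the other markers. Of the 7 tested, 3 had a positive and 4 a negative log2 fold change, with a median of -0.02. GGT1, a brush border enzyme, was the only marker of the list called, higher by 0.55 on the log2 scale (edgeR adjusted p = 0.0208). Its call was lost without USAG-1 overexpression replicate 1 or 3. MIOX was the other marker of the list with an unadjusted p under 0.05 by edgeR, and it was lower. It had 25.3 ± 0.769 CPM in control and 21.7 ± 1.51 CPM with overexpression (SD, n = 3 each), without overlap (edgeR adjusted p = 0.103). Keratins 8 and 18 were abundant, whereas CDH1, the epithelial cadherin, had at most 9 counts in a library. Of the 5 epithelial markers tested, 0 were called by edgeR, where 2 had an unadjusted p under 0.05 (KRT18 and KRT19), 1 was called by DESeq2 and 0 by limma-voom. Of 7 mesenchymal markers, 2 were called higher by edgeR, FN1 and CDH2, while 3 were called by DESeq2 and 2 by limma-voom. ZEB1 was higher too, at an unadjusted p under 0.05 (edgeR adjusted p = 0.0794). Of 4 podocyte markers 2 were tested and SYNPO was called higher, and of 6 markers of other nephron segments 1 was tested, AQP3, which was not called (unadjusted p = 0.157).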

How the data were processed

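The authors deposited 1 table of whole-number counts per gene for 6 libraries, not normalized, although its name speaks of FPKM. The submitters' notes name cutadapt 1.9, FastQC and hg38. The labels describe poly(A)-selected libraries, whereas the series' design text speaks of removal of ribosomal RNA. The aligner, the counting tool and the annotation are not given in the sources used here. The value 4 was listed for 1213 to 1448 genes per library, more often than 3 (746 to 814) or 5 (430 to 541), so 1 count need not be 1 read pair, and limits from low counts are approximate. All 6 value columns were assigned to a library.

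After filterByExpr and TMM scaling, edgeR's quasi-likelihood test (version 4.0.16, R 4.3.3) compared USAG-1 overexpression with control, with no covariate. DESeq2 (1.42.0), the tool of the study's methods, and limma-voom (limma 3.58.1) were alternatives. Standard errors are the log2 fold change over the square root of F. The other alternatives were DESeq2's size factors, library sizes alone, no filter, a minimum of 10 counts per library, the replicate number as a block, mitochondrially encoded genes left out, each library left out in turn, and an adjusted p of 0.1. The count ratios were not among the planned results, and leaving out libraries for them was added after the data were seen. Log2 CPM used a prior count of 2. The code was tested on simulated data.

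The members and the lists were chosen with earlier results of these data known. Genes named were the members, SOSTDC1, the 3 genes with the smallest p in each list and the 2 nearest profiles of each member called; others are marked as chosen after their values were seen. Genes named from marker lists are at or near 0, take most of the sum, were called or had an unadjusted p under 0.05. Those named only for an unadjusted p under 0.05 by edgeR were KRT18, KRT19, MIOX, ZEB1 and CSF1R. AQP3 was named as the only gene tested of its list. No batch is given in the labels. No sequences are shown, since the reference used here is of mouse. Some genes of the lists are not reported here.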

Additional observations from a re-analysis of the deposited data

How the results depend on the processing

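The 4 calls among the members stayed under DESeq2's Wald test, limma-voom, both other scalings, both other filters, the replicate block, without mitochondrially encoded genes and at an adjusted p of 0.1. Leaving out 1 library gave 2 to 4 calls among the members, 1137 to 5091 among all genes (2884 with all 6 libraries), 3 to 7 among tubule segment factors, 2 to 4 among progenitor factors, 0 to 3 among paralogs, 3 to 9 among cofactors and 2 to 5 among target genes. These fits have fewer libraries, and other causes were not tested. Over all genes, leaving out USAG-1 overexpression replicate 2 gave the fewest calls and leaving out control replicate 3 the most. With no low-count filter, 3 tubule segment factors were called. Among paralogs 2 were called by DESeq2 and at an adjusted p of 0.1. The log2 fold change of SOSTDC1 was 5.86 to 6.05 with a library left out. Signs turned for 2 genes that were not called: HNF4G was -0.051 without control replicate 3 and ranged up to 0.57, and PAX8-AS1 ranged from -0.18 without control replicate 3 to 0.064 without control replicate 1. With at least 10 counts required in every library NR1H4 could not be tested. The count ratios kept their direction with each library left out.

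No pairing by replicate number was seen: deviations of same-numbered libraries correlated at 0.07, -0.05 and 0.04, and 2 of 6 libraries correlated best with their own number. These correlations rest on 3 libraries a group and cannot decide whether libraries shared a batch or culture. With the replicate block 2381 genes were called, 4 of them members. With 3 libraries a group, the depth does not allow a comparison of PAX2 or HNF4A.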
